A study of Mus musculus with 6 samples.

Results

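Islet barcodes that carry both endothelial transcripts and *Rgs5* transcripts were examined. They were chosen by their own measured UMIs: a barcode was included when it held at least 2 UMIs of *Rgs5* and at least 2 UMIs of *Cdh5* and *Pecam1* together, after barcodes with fewer than 500 detected genes, more than 10% of UMIs on mt- genes, or 25% or more of UMIs on *Ins1* and *Ins2* were set aside. Of 43445 barcodes in all, 27004 passed the gene and mt- limits, 12175 of those also passed the insulin limit, and 547 were double-positive. A UMI is a molecular tag on 1 captured RNA molecule, so the values count molecules and not reads.

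Islets were taken from C57/BL6 mice at 12 to 14 weeks, 3 WT and 3 β14-3-3ζ–KO, rested overnight before they were made into single cells, cleared of dead ones, and profiled with 1 droplet library per mouse. KO mice carried the *Ins1*-CreThor allele and LoxP sites around exon 4 of *Ywhaz*, the gene for 14-3-3ζ, so that the deletion is driven in β cells, and the WT littermates carried the Cre allele as well. Neither the endothelium nor its supporting cells are a target of this Cre. The question asked of the genotypes here was therefore whether islet vessel barcodes differed when β cells lacked 14-3-3ζ. The p-values measure the spread between mice, and a library holds cells of 1 mouse.

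Islet capillaries are lined by a fenestrated endothelium that is joined by the cadherin *Cdh5* and by *Pecam1*. Pericytes are mural cells that sit in the basement membrane of these capillaries and depend on platelet-derived growth factor from the endothelium, which they sense through *Pdgfrb*. *Rgs5*, a regulator that turns off signalling by G protein–coupled receptors, is widely used as a pericyte marker, and it can also be found in some endothelial cells. In GRCm38, *Rgs5* lies on chromosome 1 (169655501 to 169695813, plus strand), *Cdh5* on chromosome 8 (104101625 to 104144511, plus strand), and *Pecam1* on chromosome 11 (106654217 to 106750628, minus strand).

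Libraries held 4400 to 10722 barcodes and 74083947 to 98294915 UMIs. Doublets were not removed and free RNA was not subtracted. Of the 547 double-positive barcodes, 11 had a barcode sequence that also occurred in another library, and 0 were double-positive in 2 libraries. The 13 leukocyte genes summed to 471 CPM in the double-positive barcodes of WT library 2, where CPM is a gene's share of all UMIs summed over a set of barcodes in a library. That library was the highest of 6, and the mean was 119 ± 184 CPM (SD). *Ptprc*, which marks leukocytes, had a UMI in 26 of the 547.

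*Ywhaz* was checked first. Its level in the summed double-positive barcodes was 589, 516, and 521 CPM in WT libraries 1 to 3 and 490, 482, and 528 CPM in KO libraries 1 to 3, after scaling by TMM. The genotypes overlapped, and the log2 fold change of KO over WT was −0.12 (SE 0.116, edgeR adjusted p = 0.980). Of the 7 genes of the 14-3-3 family, 6 were tested and 0 were called. Of the 6, 1 did not overlap between genotypes, against 883 of 8886 genes (9.94%) over all. The overlap of *Ywhaz* does not show where the deletion acts, since no β cell level is set beside it. It does not test the KO label either, since the Cre is not driven in these cells. In mural-only and B cell barcodes, given further below, *Ywhaz* did not overlap between genotypes.

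WT libraries 1 to 3 held 66, 87, and 67 double-positive barcodes, and KO libraries 1 to 3 held 97, 170, and 60. Barcodes that passed the endothelial limit with no *Rgs5* UMI (endothelial-only) numbered 1120, and barcodes that passed the *Rgs5* limit with no UMI of *Cdh5* or *Pecam1* (mural-only) numbered 162. Among all barcodes with 2 UMIs or more of *Cdh5* and *Pecam1*, the share with 2 UMIs or more of *Rgs5* was 32.4%, 19.6%, and 41.1% for WT, against 42.5%, 29.8%, and 32.6% for KO. WT library 2 was the lowest, and the genotypes overlapped. The difference of KO minus WT was 3.94 percentage points (exact permutation test, p = 0.6, adjusted p = 1.0 over 7 values per library). Without WT library 2 it was −1.75 percentage points. The difference was 1.24 percentage points with 2 UMIs or more of *Cdh5* alone as the limit, and 1.14 without barcodes that held a *Ptprc* UMI.

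Most *Rgs5*-positive barcodes also held endothelial transcripts. Of barcodes with 2 UMIs or more of *Rgs5*, 64.7%, 77.7%, and 79.8% were double-positive in WT and 71.3%, 81.7%, and 72.3% in KO libraries (difference of 1.07 percentage points, exact permutation p = 0.9, adjusted p = 1.0). The remaining values per library compared between genotypes overlapped as well. They were the share of barcodes that passed the gene and mt- limits (1.06% to 3.54% in WT and 1.41% to 3.14% in KO), the median UMIs per double-positive barcode (17393 to 22050 in WT and 12002 to 22702.5 in KO), and 3 others with adjusted p = 1.0. With 3 against 3, p cannot fall below 0.1.

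**Figure D1:**
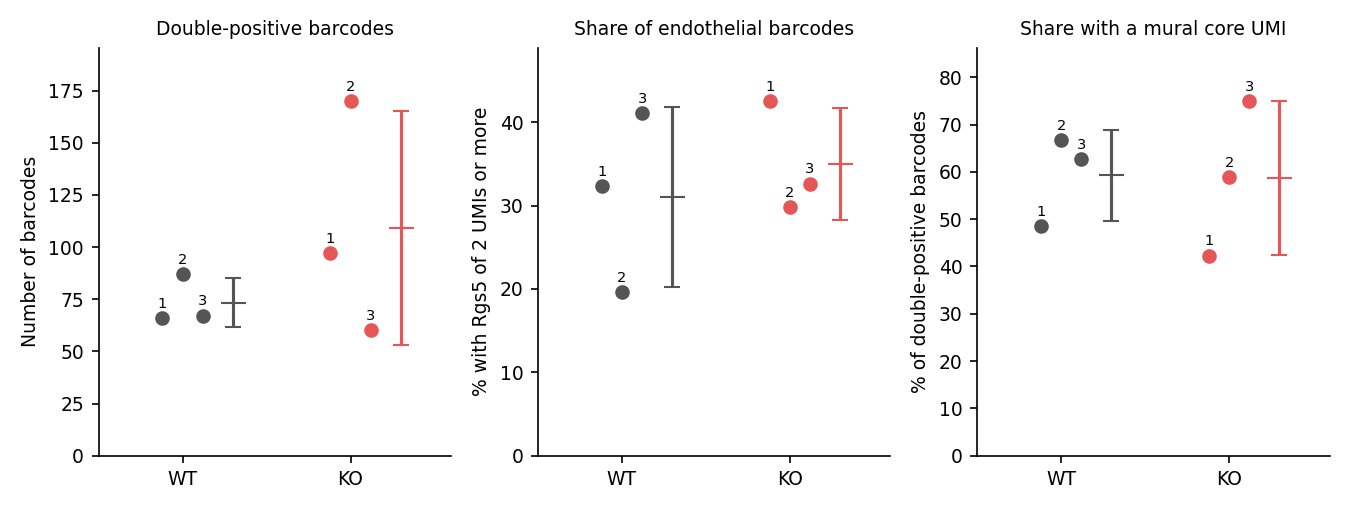
Double-positive barcodes in each library (left, number), as a share of barcodes with 2 UMIs or more of Cdh5 and Pecam1 (middle, %), and the share of them with a UMI of 6 mural core genes (right, %). Points are libraries numbered 1 to 3, and bars show the mean ± SD of 3 libraries. WT and KO overlap in all 3 panels.

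The *Rgs5* limit was passed at different rates in other sets of barcodes, given here as a description since the rule used this gene. The share of barcodes with 2 UMIs or more of *Rgs5* was 30.5% among barcodes past the endothelial limit (median 9093 UMIs). It was 40.1% among the 1338 barcodes with 2 UMIs or more of *Cdh5*. The endothelial limit also let in other barcodes: of the 1120 endothelial-only ones, 398 held a *Ptprc* UMI and 737 held a *Cdh5* UMI. The share with 2 UMIs or more of *Rgs5* differed in the other sets. It was 0.218% among B cell barcodes (2 UMIs or more of *Cd79a* and *Cd79b*, median 5274 UMIs), 0.116% among α cell barcodes (*Gcg* above 10% of UMIs, median 16305 UMIs), and 0.763% among macrophage barcodes (2 UMIs or more of *C1qa* and *C1qb*, median 16473.5 UMIs). It was 6.21% among barcodes rich in the keratins *Krt8*, *Krt18*, and *Krt19* (median 34052 UMIs) and 26.5% among barcodes with fibroblast collagens (median 19905 UMIs). All of these sets other than the endothelial ones held fewer than 2 UMIs of *Cdh5* and *Pecam1*.

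The label was checked against genes that the rule did not use. Every double-positive barcode held at least 3 of the 20 endothelial list genes other than *Cdh5* and *Pecam1*, with a median of 18. For the mural list (21 genes other than *Rgs5*), 75.8%, 85.1%, and 91.0% of double-positive barcodes held at least 3 genes in the WT, and 74.2%, 74.1%, and 95.0% did in the KO. The mean was 82.5% ± 9.16 (SD, n = 6), and it was 37.8% ± 6.59 after each barcode was thinned to 2000 UMIs. In endothelial-only barcodes the pooled share was 21.9%, or 2.48% after thinning. In those with 2 UMIs or more of *Cdh5* it was 34.9%, or 3.77% after thinning. Among barcodes with at least 10000 UMIs, 38.8% of endothelial-only ones (median 14890 UMIs) held at least 3 mural list genes. Of double-positive ones with that many UMIs (median 19149 UMIs), 92.2% did. Endothelial list genes were thus found in all double-positive barcodes. The mural list share was lower after thinning in both sets, and it was higher in double-positive than in endothelial-only barcodes in each of these comparisons.

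Some mural list genes are not particular to mural cells in these islets. *Mcam*, *Ebf1*, and *Kcnj8* were also common in endothelial-only barcodes: *Mcam*, an adhesion molecule, averaged 419 CPM in double-positive and 461 CPM in endothelial-only barcodes with 2 UMIs or more of *Cdh5*. A core of 6 mural genes that were near 0 there was set apart after values were seen. These are the growth factor receptor *Pdgfrb*, the Notch receptor *Notch3*, the proteoglycan *Cspg4* (NG2), and *Ndufa4l2*, *Cox4i2*, and *Higd1b*, 3 genes of mitochondrial or hypoxia-linked proteins that mark brain and other pericytes. All comparisons that use this core are descriptions.

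A core UMI was present in 318 of the 547 double-positive barcodes (58.1%) and absent from 229. Of the 318, 99.1% held at least 3 mural list genes other than *Rgs5*, or 59.7% after thinning to 2000 UMIs. Of the 229, 54.6% did, or 5.70% after thinning, which is nearer to endothelial-only barcodes with *Cdh5*. The core genes are part of that list. By library the share was 48.5%, 66.7%, and 62.7% (WT 1 to 3) and 42.3%, 58.8%, and 75.0% (KO 1 to 3), so both kinds were found in every library and the genotypes overlapped. Among endothelial-only barcodes a core UMI was present in 2.14%, a share that is low by the way the core was chosen. With at least 10000 UMIs the shares were 3.28% of endothelial-only and 70.1% of double-positive barcodes. Thinned to 2000 UMIs, the shares were 33.5% of double-positive and 0.735% of endothelial-only barcodes. In α cell and B cell barcodes that passed neither limit it was 1.28% and 1.53%.

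The share with a core UMI was higher in barcodes with more *Rgs5* UMIs. Among barcodes that passed the endothelial limit, it was 2.14% at 0 *Rgs5* UMIs (n = 1120), 20.6% at 1 (n = 126), 33.3% at 2 (n = 87), and 37.6% at 3 to 4 (n = 117). It was 58.3% at 5 to 9 (n = 127), 78.9% at 10 to 19 (n = 123), and 79.6% at 20 to 168 (n = 93). Median UMIs per barcode were higher in the same order, from 11412 at 2 *Rgs5* UMIs to 24585 at 20 or more, and their part in this order was not tested. Barcodes just outside the limit (1 *Rgs5* UMI) had a median of 9336.5 UMIs, and those just inside (2 UMIs) had 11412. On the endothelial side, 16 barcodes had 1 UMI of *Cdh5* and *Pecam1* (median 6552.5 UMIs, 56.3% with a core UMI) and 14 had 2 or 3 (median 4468.5 UMIs, 28.6% with a core UMI).

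**Figure D2:**
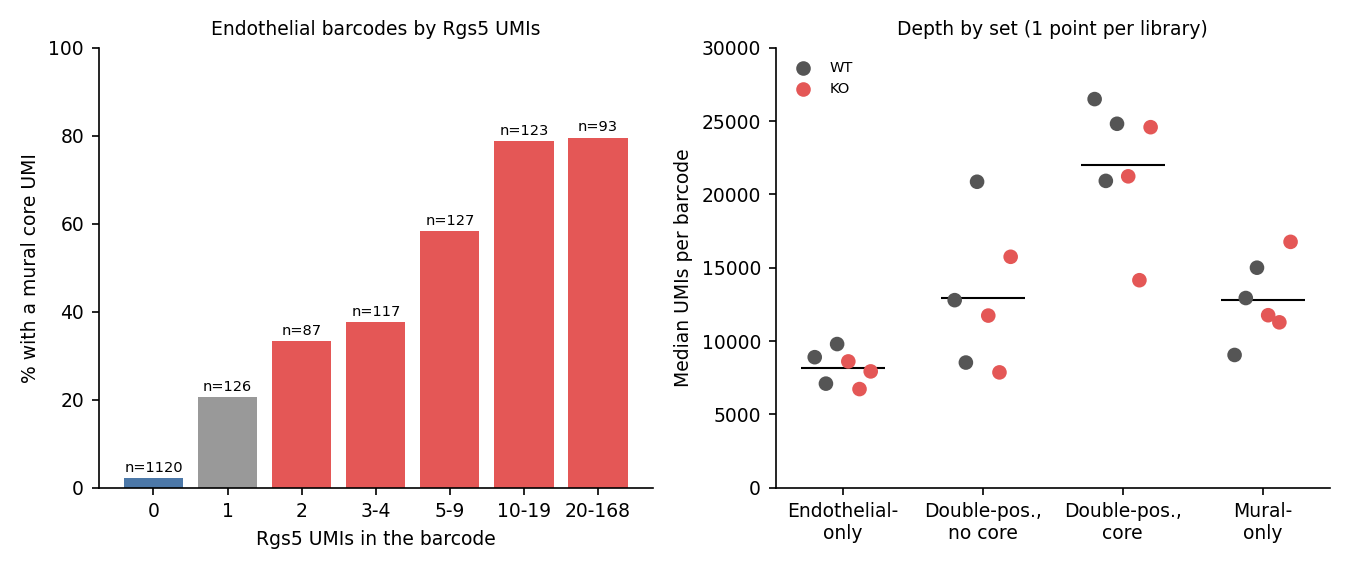
Left, share of endothelial barcodes with a mural core UMI (%) by the number of Rgs5 UMIs, with n above each bar. It is 2.14% at 0 UMIs, where it is low by the way the core was chosen, and 79.6% at 20 to 168 UMIs. Right, median UMIs per barcode in each library, 1 point per library, with the mean of 6 libraries as a line. Core-positive barcodes had the highest median of the 4 sets in each of the 6 libraries.

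The core-positive barcodes carried a broad mural program on top of an endothelial one. In the 6 libraries they averaged 292 CPM of *Pdgfrb*, 50.0 CPM of *Notch3*, and 103 CPM of *Cspg4*, which follows in part from how they were chosen. Mural genes outside the core were present too. *Des*, the intermediate filament desmin, averaged 148 CPM in core-positive and 6.50 CPM in core-negative barcodes. *Abcc9*, a potassium channel subunit, averaged 129 and 26.4 CPM, *Heyl*, a Notch target, 62.1 and 0.912 CPM, and *Aspn*, a matrix proteoglycan, 51.2 and 0.563 CPM. Mural-only barcodes with a core UMI, set beside them, averaged 391, 315, 77.4, and 72.9 CPM of these 4 genes.

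Transcripts of 3 secreted proteins were much higher in core-positive than in core-negative barcodes. *Mgp*, a matrix protein that inhibits calcification and BMP signalling, was at 12771, 9740, and 14954 CPM in core-positive barcodes of the WT and at 9293, 8261, and 9560 CPM in those of the KO. Core-negative barcodes had 58.6 to 332 CPM, and endothelial-only barcodes with *Cdh5* averaged 54.0 CPM. Over all double-positive barcodes *Mgp* overlapped between genotypes (log2 fold change −0.41, SE 0.168, edgeR adjusted p = 0.980). In core-positive barcodes every KO library lay below every WT library, but the genotypes overlapped once keratin-bearing barcodes were left aside. In core-negative barcodes KO lay above WT (98.7 to 332 against 58.6 to 72.4 CPM). Neither was tested, and 9.94% of all genes tested did not overlap in the summed double-positive barcodes. *Igfbp5*, an IGF-binding protein, averaged 8468 ± 2073 CPM (SD, n = 6) in core-positive and 162 ± 56.7 CPM in core-negative barcodes, against 45.7 CPM in endothelial-only ones. *Spp1*, the matrix phosphoprotein osteopontin, averaged 1631 ± 492 CPM in core-positive and 98.2 ± 105 CPM in core-negative barcodes. Its UMIs were concentrated: 1 double-positive barcode held 1101 of 2164 *Spp1* UMIs in WT library 1, 618 of 2145 in WT library 2, and 630 of 1940 in KO library 3.

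With keratin-bearing barcodes (2 UMIs or more of *Krt8*, *Krt18*, and *Krt19*) left aside, 461 of 4119 genes were higher in core-positive than in core-negative barcodes in all 6 libraries, 118 of them by 2-fold or more, on log2 of CPM plus 10. In the other direction 382 genes were lower in all 6, 4 of them by 2-fold. Besides the genes above, high ratios belonged to *Gm13889*, the galectin *Lgals1*, the lipoprotein receptor *Lrp1*, the globin *Cygb*, the mesenchymal transcription factor *Prrx1*, the cytokine *Il11*, the endothelin receptor *Ednra*, and the sphingosine 1-phosphate receptor *S1pr3*. Without the keratin-bearing barcodes, *Il11* was uneven in the core-positive ones, at 197, 167, and 55.1 CPM in WT and 32.7, 350, and 397 CPM in KO libraries. These lists were ranked on the same barcodes that the core had split and carry no test.

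Few of the genes that differed in all 6 libraries between core-negative and other endothelial barcodes did so by 2-fold or more. Among those few were *Rgs5*, which the rule sets apart, *Igfbp5*, and islet hormones, which were lower. Core-negative barcodes without the keratin-bearing ones were set against endothelial-only barcodes with 2 UMIs or more of *Cdh5*, which were not filtered by keratin UMIs. In all 6 libraries 312 of 3926 genes were higher, but only 2 by 2-fold or more, *Rgs5* and *Igfbp5*. *Rgs5* differs by the rule, since endothelial-only barcodes hold no UMI of it. *Igfbp5* averaged 179 ± 73.0 against 45.7 ± 54.0 CPM and was uneven, with 166 against 155 CPM in KO library 2. With keratin-bearing ones included, *Rgs5* averaged 485 ± 106 CPM in core-negative and 734 ± 221 CPM in core-positive barcodes. The summed endothelial list (without *Cdh5* and *Pecam1*) averaged 21936 CPM in core-negative barcodes and 20904 CPM in endothelial-only barcodes with *Cdh5*, a ratio per library of 1.07 ± 0.177 (SD, n = 6). Genes that were lower in all 6 libraries numbered 80, 13 by 2-fold, and the leading ones were the islet hormones *Pyy*, *Ppy*, *Sst*, and *Gcg*.

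Some endothelial genes, picked after their values were seen, were higher in core-negative than in endothelial-only barcodes with *Cdh5*, and others were not. Keratin-bearing barcodes were again left aside on the core-negative side only. Of the 682 endothelial-only ones, 29 held 2 keratin UMIs or more. *Angpt2* averaged 458 and 455 CPM, and *Kdr*, the VEGF receptor, averaged 2231 and 2126 CPM. *Kit*, the stem cell factor receptor, averaged 255 ± 73.7 and 160 ± 42.7 CPM, and *Erg*, an endothelial transcription factor, averaged 339 ± 65.7 and 215 ± 46.2 CPM, both higher in 6 of 6 libraries. *Cxcr4*, the receptor for *Cxcl12*, averaged 686 ± 122 and 471 ± 123 CPM, and it was higher in 5 of 6 libraries, with 663 against 698 CPM in WT library 1. *Apln*, the apelin peptide made by tip cells, was at 459, 69.4, and 238 CPM in WT and 155, 90.7, and 193 CPM in KO libraries. WT library 2 was below its endothelial-only level of 136 CPM, and the other 5 libraries were above theirs. Core-negative barcodes were the deeper of the pair (median 10752 against 8035.5 UMIs), and the part of depth was not tested.

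*Rgs5* was high in some barcodes with few other mural transcripts. Among barcodes with fewer than 2 keratin UMIs, 41 held 10 or more *Rgs5* UMIs and no core UMI (5, 3, and 5 in WT and 13, 12, and 3 in KO libraries). Their median was 15 *Rgs5* UMIs, 31 UMIs of *Cdh5* and *Pecam1*, and 18 of 20 endothelial list genes, in 11506 UMIs. Of the 12 mural list genes outside the core other than *Mcam*, *Ebf1*, and *Kcnj8*, they held a median of 1, and 4.88% held at least 3. In endothelial-only barcodes with *Cdh5*, which were not filtered by keratin UMIs, the median was 0 and the share was 1.03%. *Des* had a UMI in 17.1% of the 41 and in 1.32% of those endothelial-only barcodes. The 155 barcodes with 10 or more *Rgs5* UMIs and a core UMI held a median of 7 of these genes, and 95.5% held at least 3 (median 21965 UMIs).

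*Mgp* at 10 UMIs or more was found in 7.32% of the 41 barcodes, 96.1% of the 155, 68.8% of mural-only barcodes with a core UMI, and 1.61% of endothelial-only barcodes with *Cdh5*. At 1 UMI or more it was found in 43.9% of the 41 and 9.24% of those endothelial-only barcodes.

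**Figure D3:**
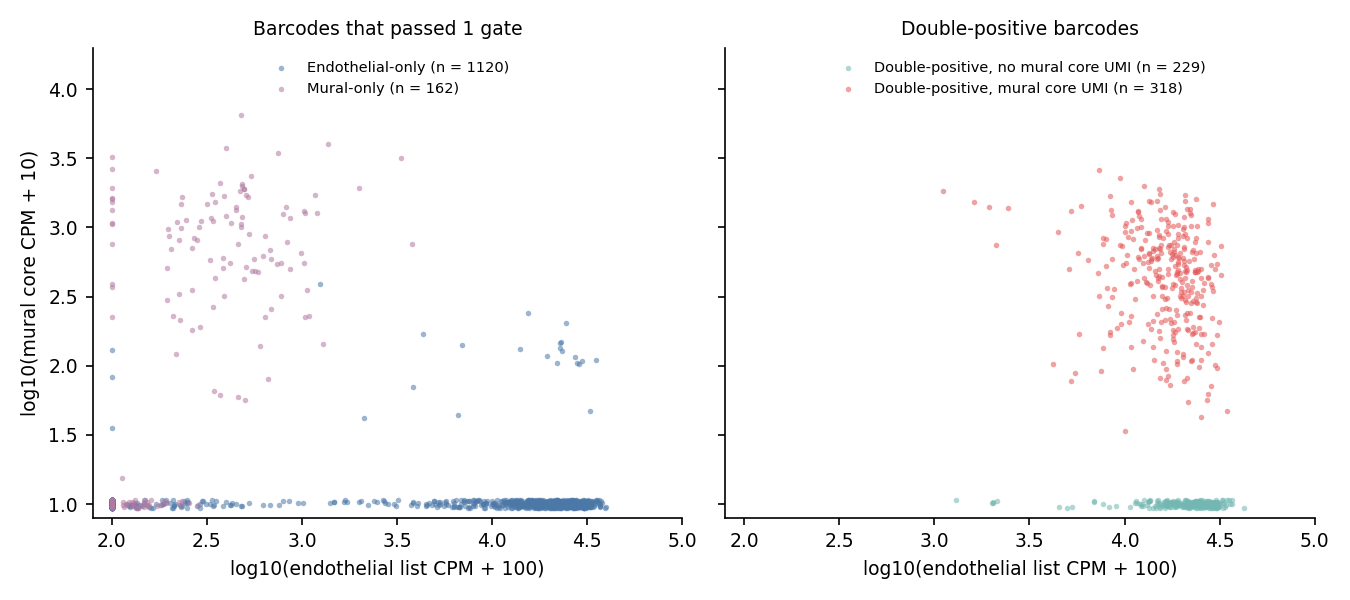
Each point is 1 barcode, placed by its summed endothelial list level (x, log10 of CPM + 100) and its mural core level (y, log10 of CPM + 10, with a small random vertical offset). Left, the 1120 endothelial-only and 162 mural-only barcodes mostly lie apart, on the bottom line and at low endothelial levels respectively, save for mural-only barcodes without a core UMI at the lower left. Right, the 318 core-positive double-positive barcodes combine endothelial levels near those of endothelial-only barcodes with a mural core level, and the 229 core-negative ones lie on the bottom line, which stands for 0 CPM.

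Core-positive barcodes were deeper than the others. Their median was 26500, 20924.5, and 24817.5 UMIs for WT, against 21235, 14153, and 24585 UMIs for KO. Endothelial-only barcodes had 8906, 7103, and 9801 UMIs in WT and 8617.5, 6732, and 7937 UMIs in KO libraries, and mural-only barcodes had 9057 to 16768 UMIs. Relative to endothelial-only barcodes of the same library, all double-positive barcodes together had 2.21 ± 0.40 times the median UMIs (SD, n = 6). Relative to endothelial-only barcodes with *Cdh5*, core-positive barcodes had 2.52 ± 0.309 times and core-negative ones 1.46 ± 0.417 times the median UMIs. The rule asks for at least 4 UMIs of named genes, which favours deep barcodes.

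Per UMI, core-positive barcodes held somewhat less endothelial RNA and a varied amount of mural RNA. Their endothelial list level was 0.871 ± 0.124 times that of endothelial-only barcodes with *Cdh5*. Their mural list level was 0.761, 0.636, and 3.58 times that of mural-only barcodes with a core UMI in WT libraries and 0.559, 1.16, and 0.582 times in KO libraries. WT library 3 was the highest, and 4 of 6 libraries lay below 1.

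Doublet scores were higher for core-positive barcodes than for core-negative ones. The median rank of the Scrublet score within the library was 75.1, 76.1, and 61.2% in WT and 63.3, 83.8, and 60.3% in KO libraries for core-positive barcodes. For core-negative barcodes it was 41.7, 52.6, and 29.8% in WT and 25.9, 45.2, and 21.4% in KO libraries, lower in all 6. Scrublet called 23 of 547 as doublets, against 92 of 1120 endothelial-only (8.21%) and 5 of 162 mural-only barcodes (3.09%). By call the order was the other way, with 10 of 318 core-positive (3.14%) and 13 of 229 core-negative barcodes (5.68%). The part of depth in the score was not tested.

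Barcodes that passed the *Cdh5* limit and a second limit were counted for mural core genes and for 4 other gene sets. Of 1338 barcodes with 2 UMIs or more of *Cdh5*, 261 (19.5%) also held 4 or more core UMIs. By the same count 41 (3.06%) also passed the B cell limit, 19 (1.42%) the macrophage limit, 8 (0.598%) a limit of 10 keratin UMIs, and 1 (0.0747%) the α cell limit. Seen from the other side, 58.4% of the 447 barcodes with 4 or more core UMIs passed the *Cdh5* limit, against 1.16% of 3521 B cell, 1.41% of 1347 macrophage, and 0.115% of 870 α cell barcodes. These limits differ in how strict they are, and the shares are set side by side without a test. Hormones of all kinds were above 10% of UMIs in 147 of the 682 endothelial-only barcodes with *Cdh5*.

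Among barcodes chosen on both mural core and *Rgs5* UMIs, those without *Cdh5* and *Pecam1* UMIs were in the minority. Other endothelial genes could still be present, as mural-only barcodes with a core UMI held a median of 2 of the 20. Of 345 barcodes with 4 or more core UMIs and 2 or more *Rgs5* UMIs, 252 (73.0%) passed the endothelial limit, 7 had 1 UMI of *Cdh5* and *Pecam1*, and 86 (24.9%) had none. The 86 were found in every library (16, 20, and 4 in WT and 17, 17, and 12 in KO). They had a median of 8917 UMIs, against 21351.5 UMIs for the 252. Of the 86, 28 (32.6%) held 5 or more UMIs of fibroblast collagens, *Dcn*, or *Lum*, against 27 of the 252 (10.7%).

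On average, smooth muscle and fibroblast genes were lower in double-positive than in mural-only barcodes, with a wide spread in the latter. The 9 smooth muscle genes summed to 242 CPM in core-positive barcodes and 1045 ± 594 CPM in mural-only barcodes with a core UMI. *Acta2*, smooth muscle actin, averaged 20.4 and 214 CPM and *Tagln* 35.3 and 183 CPM in these sets. The 8 fibroblast and stellate cell genes summed to 150 CPM in core-positive barcodes (94.2 to 236 CPM by library) and 2668 CPM in mural-only ones (38.3 to 6249 CPM), in which *Dcn*, a small proteoglycan, averaged 1019 CPM against 45.4 CPM. The mural-only barcodes were a mixed set: 50 of 162 had no core UMI, and 46 of those 50 (92.0%) held keratins.

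**Figure D4:**
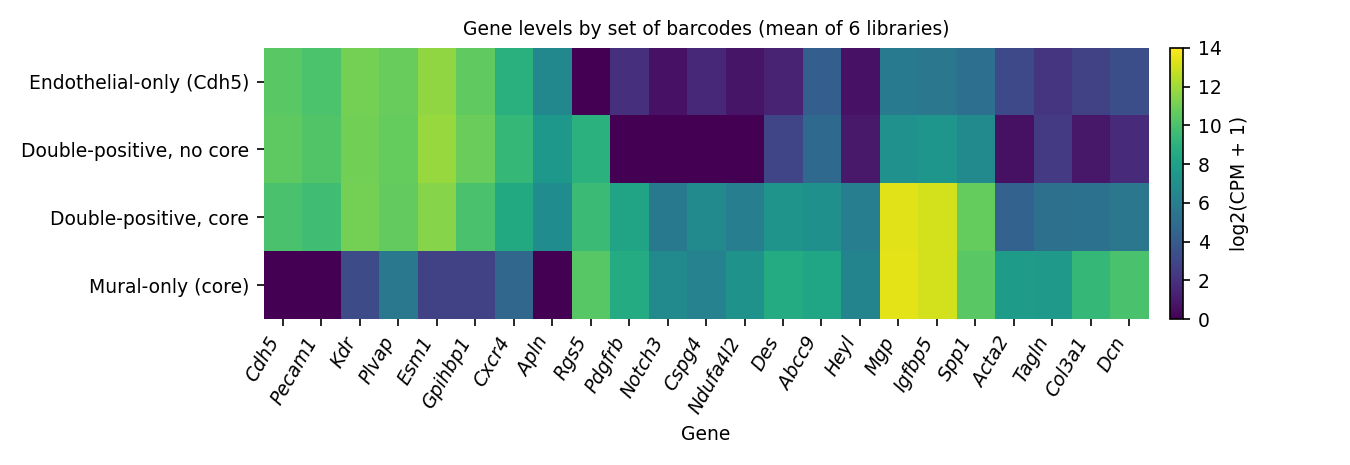
Mean level over 6 libraries, as log2(CPM + 1), of 23 genes (columns) in 4 sets of barcodes (rows). Core-negative double-positive barcodes lie near endothelial-only ones for most genes shown, with Rgs5 the main exception. Rgs5 is at 0 in endothelial-only barcodes by the rule. Igfbp5 (162 against 45.7 CPM), Mgp (132 against 54.0 CPM), and Spp1 (98.2 against 33.2 CPM) are also higher in them. Core-positive barcodes hold both programs, and Acta2, Tagln, Col3a1, and Dcn are highest in mural-only barcodes. Pdgfrb, Notch3, Cspg4, and Ndufa4l2 are at 0 in core-negative barcodes by definition.

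Ligands and receptors of the vessel wall were followed next. Of the 37 genes of the vessel signalling list, 11 were higher in double-positive than in endothelial-only barcodes in all 6 libraries and 0 were lower in all 6. Against mural-only barcodes 26 were higher in all 6 libraries and 1 was lower in all 6. The share over all genes is not given here for either contrast, so these counts do not show whether the list stands out. The summed list was at 15759 CPM in double-positive, 11700 CPM in endothelial-only, and 15566 CPM in endothelial-only barcodes with *Cdh5*, so the excess over endothelial-only barcodes was small once *Cdh5* was asked for. *Pdgfb*, the endothelial ligand of *Pdgfrb*, averaged 210 CPM in core-positive, 230 CPM in core-negative, and 16.7 CPM in mural-only barcodes with a core UMI. *Pdgfrb* itself averaged 292 CPM in core-positive and 395 CPM in those mural-only barcodes. *Dll4*, an endothelial Notch ligand, averaged 322 and 534 CPM in core-positive and core-negative barcodes and 2.87 CPM in mural-only ones.

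The endothelin pathway showed both ligand and receptor in core-positive barcodes, and the sphingosine 1-phosphate pathway was read from receptors only. *Edn1*, endothelin, averaged 118 CPM and its receptor *Ednra* 123 CPM there, while core-negative barcodes had 144 CPM of *Edn1* and 0.772 CPM of *Ednra*. *S1pr1*, the endothelial sphingosine 1-phosphate receptor, averaged 739 CPM in core-positive and 1048 CPM in core-negative barcodes, and *S1pr3* averaged 149 and 2.74 CPM. *Angpt1*, the mural ligand of *Tek*, was nearly undetected at 0.192 CPM in all double-positive barcodes, while *Angpt2* averaged 473 CPM. *Vegfa* averaged 151 CPM in core-positive and 40.4 CPM in core-negative barcodes.

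Basement membrane genes were high in both kinds. The 16 genes summed to 13146 CPM in core-positive, 10715 CPM in core-negative, 10099 CPM in endothelial-only barcodes with *Cdh5*, and 6904 CPM in mural-only barcodes with a core UMI. The collagen IV chain *Col4a1* averaged 2226, 1739, 1554, and 1051 CPM in these sets. *Col18a1*, the source of endostatin, averaged 284 CPM in core-positive and 38.1 CPM in core-negative barcodes.

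The arterial list summed to 478 ± 118 CPM, the venous list to 141 ± 30.5 CPM, and the lymphatic list to 266 ± 26.6 CPM in double-positive barcodes (SD, n = 6), each carried by a few of its genes. *Gja5*, a connexin of arteries, and *Selp*, a selectin of venules, had UMIs in 0 of 547 double-positive barcodes, which allows a share of barcodes with a UMI of up to 0.548% (3 counts, for counting error only) and does not limit the share of cells that express the gene. *Gja4*, a connexin of arterial endothelium and of mural cells, averaged 174 CPM in core-positive and 52.8 CPM in core-negative barcodes, and *Nr2f2*, a venous and mesenchymal transcription factor, 94.4 and 4.10 CPM. The capillary genes *Plvap*, a diaphragm protein of fenestrae, and *Gpihbp1*, which anchors lipoprotein lipase, averaged 1630 and 1227 CPM in all double-positive barcodes. *Lyve1* averaged 0.258 CPM. *Flt4*, which also marks fenestrated capillaries, averaged 264 CPM.

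Other genes of the *Rgs* family were read for comparison. *Rgs4*, also used as a pericyte marker, averaged 55.7 CPM in core-positive and 10.1 CPM in core-negative barcodes, close to the 10.5 CPM of endothelial-only barcodes with *Cdh5*, so that it went with the core rather than with *Rgs5*. *Rgs3* averaged 63.7 CPM in core-positive and 45.5 CPM in core-negative barcodes.

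Genes outside the range of both neighbours were searched for next. Of 4477 genes at 50 CPM or more in any of the 3 sets, 486 were higher in double-positive than in both endothelial-only and mural-only barcodes in all 6 libraries, 9 of them by 2-fold or more. The 10 with the highest ratio to the nearer set were *Igfbp5*, the hormone *Stc1*, the protease inhibitor *Serpine2*, the phosphatase *Ptp4a3*, *Gja4*, the transcription factor *Tbx3*, the chloride cotransporter *Slc12a2*, *Sparcl1*, *Apln*, and *Gng11*. *Igfbp5* was at 5794 CPM, against 30.3 CPM in endothelial-only and 2397 CPM in mural-only barcodes, a log2 ratio of 1.63 to the nearer.

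In the other direction 38 genes were lower than in both sets in all 6 libraries, 3 of them by 2-fold. The 10 lowest were the MHC class II genes *Cd74* and *H2-Ab1*, *Limd2*, *Slc43a2*, the metallothioneins *Mt2* and *Mt1*, *Bmyc*, *Smim22*, *Sh3bgrl3*, and *Hadh*. *Cd74*, a leukocyte gene, was at 105 CPM, against 1029 CPM in endothelial-only barcodes, of which 398 of 1120 held a *Ptprc* UMI.

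These counts depended on the references. With core-positive barcodes set against endothelial-only barcodes with *Cdh5* and mural-only barcodes with a core UMI, 107 of 4464 genes were above both and 2, *Ins1* and *Ins2*, were below both in all 6 libraries. The share of genes outside the range was 11.7% with the first references and 2.44% with these. Only *Dmp1*, a matrix phosphoprotein of bone and dentin, was above both by 2-fold or more. It averaged 61.4 ± 42.6 CPM in core-positive barcodes, 0.238 CPM in endothelial-only ones, and 9.29 CPM in mural-only ones. It had UMIs in 10, 8, and 16 double-positive barcodes of WT libraries and 10, 11, and 7 of KO libraries, and 1 barcode held up to 63 of a library's 135 UMIs.

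Hormone transcripts, the main free RNA of an islet suspension, were lower in these barcodes. The 10 endocrine genes summed to 27418 CPM in core-positive, 51694 CPM in core-negative, and 66226 CPM in endothelial-only barcodes with *Cdh5*. Median depth was lower in the same order, from 19241 to 10752 and 8035.5 UMIs, and its part was not tested. Hormones made up more than 10% of UMIs in 52 of the 547, and 35 of those 52 were core-negative. Schwann cell genes *Sox10* and *Gfap* had 0 UMIs in the 547, and the 4 platelet genes summed to 2.79 CPM.

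In the summed double-positive barcodes, KO and WT differed in 1 gene of 8886 tested. *Ccn2*, which encodes connective tissue growth factor, was lower in KO, and it is a secreted matrix protein and a target of TGF-β and of YAP. It was at 269, 230, and 200 CPM in WT libraries 1 to 3 and 102, 90.0, and 71.8 CPM in KO libraries 1 to 3, after scaling by TMM. Every KO library lay below every WT library. The log2 fold change was −1.40 (SE 0.152, edgeR quasi-likelihood test, adjusted p = 0.00569), and 0.0113% of genes were called. A further measure of the background is that 363 genes (4.09%) had an unadjusted p below 0.05 and 883 genes (9.94%) did not overlap between genotypes. DESeq2 also called 1 gene.

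*Ccn2* went with the mural core. In core-positive barcodes it was at 401, 282, and 306 CPM in WT and 148, 121, and 83.5 CPM in KO libraries, without overlap. In core-negative barcodes it was at 61.2, 34.7, and 0 CPM in WT and 43.9, 6.10, and 23.7 CPM in KO libraries, which overlapped. In the core-positive barcodes alone the log2 fold change was −1.46 (edgeR adjusted p = 0.0424), and without the barcodes that held 2 keratin UMIs it was −1.46 over all double-positive ones (edgeR adjusted p = 0.00525).

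Other barcodes did not show the same separation. In mural-only barcodes *Ccn2* was at 91.1, 129, and 102 CPM in WT and 63.6, 126, and 57.6 CPM in KO libraries. In endothelial-only barcodes with *Cdh5* it was at 2.31, 61.4, and 21.7 CPM in WT and 25.8, 7.14, and 6.43 CPM in KO libraries. The genotypes overlapped in both, and whether the change differed between these sets was not tested. The mural-only values were sums over a mixed set. Of the 162 barcodes, 50 had no core UMI, and 46 of those 50 held keratins. The 50 were deeper (median 27702 UMIs) than the 112 with a core UMI (median 8714 UMIs). *Ccn2* is not given here for the 112 alone. *Ccn1*, a close relative of *Ccn2*, was at 62.3 to 94.9 CPM in WT and 68.3 to 90.1 CPM in KO double-positive barcodes, with a log2 fold change of −0.08 (edgeR adjusted p = 0.992).

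The call of *Ccn2* was lost under 4 settings, though its log2 fold change stayed between −1.28 and −1.52 in every setting run. It had an adjusted p of 0.147 with at least 5 *Rgs5* UMIs, 0.0563 with up to 20% of mt- UMIs, 0.0561 without WT library 1, and 0.0672 without KO library 2 (edgeR in each). With the replicate number as a block, the calls were 24, of which 10 were of genes higher in KO and 14 of genes lower in KO, and *Ccn2* was among them (log2 fold change −1.41, SE 0.101, edgeR adjusted p = 1.43e-07).

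The next genes by p were not called in the main fit. *Gstp1*, a glutathione transferase, was at 36.2, 38.1, and 40.4 CPM in WT and 15.3, 13.9, and 20.3 CPM in KO libraries (log2 fold change −1.23, SE 0.199, edgeR adjusted p = 0.177), and with the replicate block it was called (adjusted p = 0.00591), as it was with no filter on low counts (adjusted p = 0.000514). Its genotypes did not overlap. They did not overlap in endothelial-only barcodes with *Cdh5* (WT mean 38.2 and KO mean 12.9 CPM), in mural-only barcodes (124, 81.9, and 104 against 31.3, 30.9, and 32.9 CPM), or in α cell barcodes (11.9, 20.4, and 14.9 against 3.27, 6.79, and 6.41 CPM) either. In B cell barcodes they overlapped. These sets share their libraries with the double-positive barcodes and were not tested. *Ywhaz* overlapped between genotypes in the double-positive, endothelial-only (with *Cdh5*), and α cell barcodes, while it did not overlap in mural-only barcodes (556, 494, and 554 CPM in WT and 481, 263, and 387 CPM in KO) or in B cell barcodes (288, 244, and 204 CPM in WT and 78.4, 151, and 155 CPM in KO). *Gstp1* lies on chromosome 19 (4035407 to 4037985, minus strand), *Ccn2* on chromosome 10 (24595442 to 24598683, plus strand), and *Ywhaz* on chromosome 15 (36770770 to 36796929, minus strand).

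*Fos*, an immediate early transcription factor, was at 122, 108, and 92.5 CPM in WT and 193, 154, and 157 CPM in KO libraries (log2 fold change 0.64, SE 0.140, edgeR adjusted p = 0.924), and it was called with the block (adjusted p = 0.00558). Of the 12 immediate early and stress genes, 11 were tested and 0 were called. The values were higher in KO for 9 and lower for 2, with a median log2 fold change of 0.31 against −0.00068 over all genes tested. Of the 11, 5 had an unadjusted edgeR p under 0.05, against 363 of 8886 genes (4.09%) over all. In endothelial-only barcodes with *Cdh5*, *Fos* overlapped between genotypes (59.2 to 136 CPM in WT and 83.6 to 122 CPM in KO).

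*Krt18* and *Clu*, transcripts of ductal epithelium, rested on few barcodes. *Krt18* was at 6.52, 8.12, and 9.19 CPM in WT and 203, 94.3, and 10.2 CPM in KO libraries (log2 fold change 3.69, edgeR adjusted p = 0.924). In KO library 1, 1 barcode held 269 of 360 *Krt18* UMIs, and in KO library 2, 1 barcode held 165 of 196. *Clu* had a log2 fold change of 2.90 (edgeR adjusted p = 0.924), and without the barcodes that held 2 keratin UMIs it was −0.0049. Both genes were called with the block, and the epithelial genes *Krt8*, *Krt7*, and *Epcam* were called there too.

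**Figure D5:**
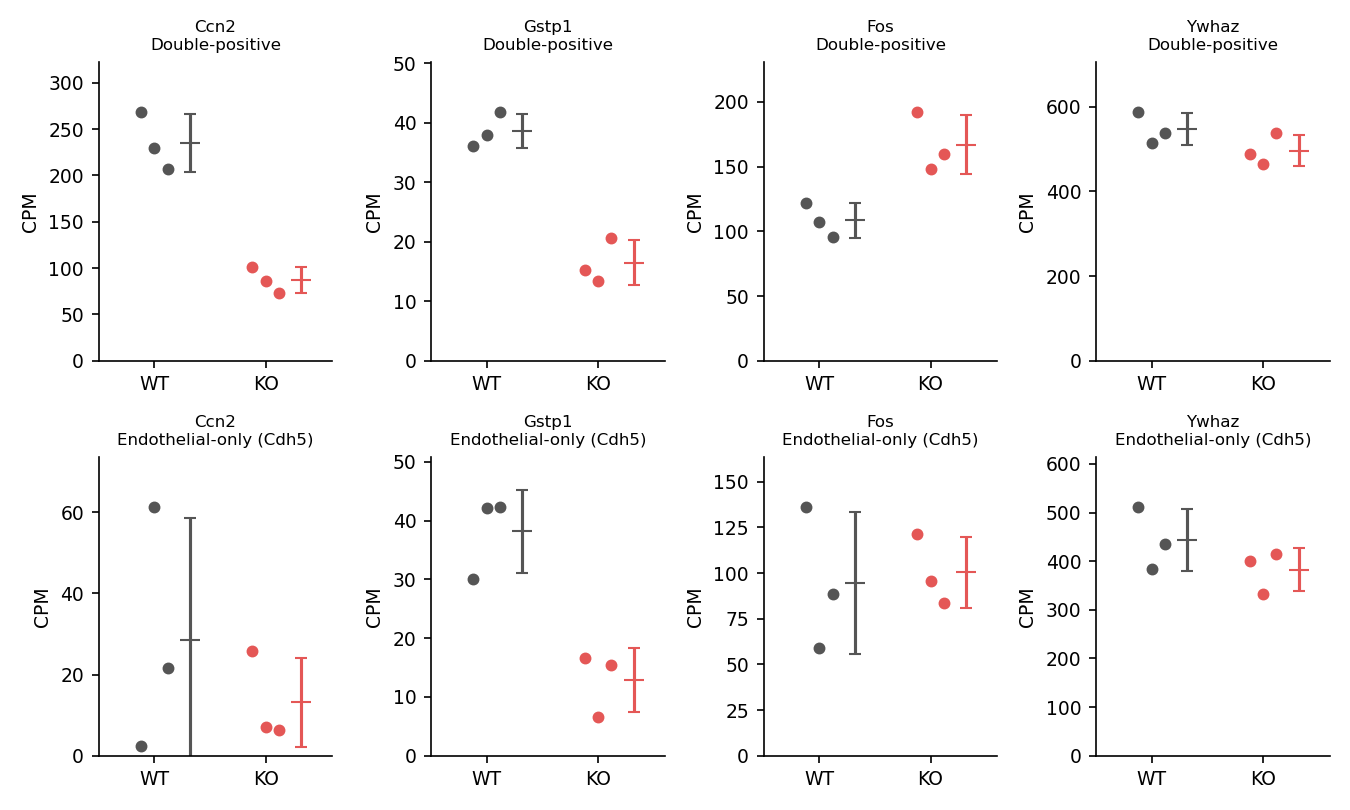
Levels (CPM, without TMM) of Ccn2, Gstp1, Fos, and Ywhaz in the summed double-positive barcodes (top) and in endothelial-only barcodes with 2 UMIs or more of Cdh5 (bottom). Points are libraries, and bars show the mean ± SD of 3, with the bar of Ccn2 in WT (bottom) ended at 0. Ccn2 separates the genotypes in the top row and overlaps in the bottom row, Gstp1 separates them in both, and Ywhaz overlaps in both.

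The genes of the rule and the vessel wall lists held no called gene. *Rgs5*, *Cdh5*, and *Pecam1* were bounded from below by the rule in every barcode, which limits what their comparison can show. *Rgs5* was at 807, 508, and 704 CPM in WT and 643, 668, and 537 CPM in KO libraries (log2 fold change −0.13, SE 0.165, edgeR adjusted p = 0.981). *Cdh5*, *Pecam1*, and *Pdgfrb* had log2 fold changes of −0.05, −0.01, and −0.13, and their genotypes overlapped. Of the 22 endothelial genes tested, 0 were called (10 higher and 12 lower, median −0.01). Of the 19 mural genes tested, 0 were called (5 higher and 14 lower, median −0.13), and of 34 vessel signalling genes 0 were called (10 higher and 24 lower, median −0.11). At an unadjusted p below 0.05 these lists held 1, 1, and 2 genes, and DESeq2, which called *Ccn2* alone, called none of them. *Ednra* had the smallest p of that list, with 95.7 ± 2.38 CPM in WT and 73.3 ± 13.5 CPM in KO (log2 fold change −0.39, SE 0.144, edgeR adjusted p = 0.980).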

How the data were processed

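Single-cell RNA-Seq libraries of islets, made with the Chromium 3′ kit (v3.1), were analysed for 3 WT and 3 β14-3-3ζ–KO mice. The authors deposited unnormalized counts, 1 matrix per library, with the UMIs of every gene in every called barcode. The submitters' processing notes name Cell Ranger 6.0.2, mm10, and Seurat. Barcodes with at least 500 detected genes, at most 10% of UMIs on mt- genes, and less than 25% of UMIs on *Ins1* and *Ins2* were kept. Free RNA was not subtracted, and doublets were scored with Scrublet (scanpy 1.11.5, seed 1, the top-scored 0.8% per 1000 barcodes called in each library) but not removed.

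The barcodes described and the gene lists were chosen with earlier results of these data known. The mural core set, the split by keratin transcripts, and the references narrowed by *Cdh5* or a core UMI were chosen after values were seen. Double-positive barcodes were summed per library and compared with edgeR 4.0.16 (quasi-likelihood test, TMM, Benjamini-Hochberg) in R 4.3.3, and genes entered if more than 15% of these barcodes had a UMI in WT or in KO. Calls needed an FDR below 0.05 and a log2 fold change beyond 0.1 in size, as in the study. The fit was tested on simulated data. For single values per library an exact permutation test (2-sided) was used, whose smallest p with 3 against 3 is 0.1. Contrasts of these barcodes with other barcodes were not tested. Same-numbered WT and KO libraries deviated together (correlations of 0.18, 0.38, and 0.19 between deviations from the genotype means), so a fit with the replicate number as a block is given beside the main one. The pairing comes from these correlations and the sample titles, and the labels do not say what a number marks. Chi-square statistics per degree of freedom were 4.15 to 9.94 between libraries of 1 genotype, so no library was a copy of another. Named genes were *Rgs5*, *Cdh5*, *Pecam1*, *Pdgfrb*, and *Ywhaz*, list members, the 5 genes of smallest p between genotypes, and the 10 genes farthest above and below both references. Others were named after their values were seen. Alternatives were other limits of the gates, DESeq2 1.42.0, other size factors, no filter on low counts, and each library left out. Coordinates are those of GENCODE vM21 (GRCm38). 1 gene among those with high ratios is not reported here.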

Additional observations from a re-analysis of the deposited data

How the results depend on the processing

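Of the alternatives to the results per comparison, most kept their direction and their side of the threshold. The genes called between genotypes numbered 1 in the main fit, 0 with at least 5 *Rgs5* UMIs, 0 with up to 20% of mt- UMIs, 51 with no filter on low counts (31 higher and 20 lower, of 17595 genes), and 24 with the replicate block, of which 1 was shared with the main fit. With 1 library left out they numbered 0 to 5. They were 0 without WT library 1 or KO library 2, 2 without WT library 2 (*Ccn2* and *Dmp1*), and 5 without KO library 3 (*Ccn2*, *Clu*, *Krt8*, *Krt18*, and *Epcam*). Beside *Ccn2*, the block called *Gstp1*, *Krt18*, *Fos*, *Clu*, *Krt8*, *Krt7*, *Epcam*, *Dmp1*, *Slc12a2*, *Mt1*, *Ppy*, and *Ins2* of the genes named here. With no filter on low counts *Gstp1*, *Krt18*, *Fos*, and *Clu* were called too. The cause of these changes was not tested.

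The difference between genotypes in the share of endothelial barcodes ranged from −1.75 to 8.98 percentage points with 1 library left out, and −1.75, without WT library 2, is a reversal. The relative median UMIs were 2.69 with core-positive barcodes alone, and the share with 3 mural genes was 37.8% when thinned to 2000 UMIs, where fewer UMIs are counted by construction. Log2 fold changes near 0 turned their sign: *Pecam1* 0.0042 with up to 20% of mt- UMIs, *Cdh5* 0.0092, *Pecam1* 0.043, and *Clu* −0.0049 without barcodes of 2 keratin UMIs. With 1 library left out, *Rgs5* ranged from −0.29 to 0.023, *Cdh5* from −0.17 to 0.043, *Pecam1* from −0.089 to 0.095, and *Pdgfrb* from −0.28 to 0.075. Mural-only barcodes were few (16 to 37 per library), which limits the ratios to them. The summed double-positive barcodes held 1385317 to 2162642 UMIs per library, which limits genes of low level.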
